A study of Homo sapiens with 2 samples.

Results

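The cells described here were the epithelial cells of human colon organoids that carried the intestinal transcripts FABP2 and RBP2, and they are called enterocyte-like cells below. They were chosen by their own counts: a barcode needed at least 10000 unique molecular identifiers (UMIs, the tags that count captured mRNA molecules), at most 20% of them from mitochondrial genes, and fewer than 300 MALAT1 UMIs per 10000. It further needed at least 2 EPCAM UMIs per 10000, fewer than 5 UMIs per 10000 of COL1A1, COL1A2 and COL3A1 together, and at least 2 UMIs per 10000 of FABP2 and RBP2 together. The rule was met by 73 of 887 epithelial cells in the untreated library (CNT) and by 11 of 640 in the cytokine-treated library (3CK), 84 of the 4898 barcodes in all. FABP2, RBP2 and EPCAM, and every grouping of cells by them below, are therefore given as a description. The other epithelial cells of a library, 814 in CNT and 629 in 3CK, met every criterion except the one on FABP2 and RBP2.

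The organoids were grown from 1383D6, a line of human induced pluripotent stem cells. All cells of both libraries had passed through Activin A, then FGF2, then Matrigel culture with EGF, forskolin, PD98059 (an inhibitor of MEK), 5-aza-2'-deoxycytidine (an inhibitor of DNA methylation) and a further agent whose name is cut short in the labels after A-83. The 3CK organoids were also given 3 cytokines over 8 days, namely TNF-α, IFN-γ and IL-1β; CNT organoids were not, and the labels name no vehicle. Each group was 1 library from 1 line, so there are no replicates, no test was possible, and cytokine treatment and library cannot be told apart. Every interval below is at the 95% level and covers counting error only. The libraries shared 0 barcodes. The 73 CNT cells held between 10741 and 143050 UMIs (median 68680, against 71001.5 in the other CNT epithelial cells), and the 11 3CK cells between 21372 and 132412 (median 66525, against 98153). Values per cell are UMIs per 10000; values per set are CPM, the summed UMIs of a gene scaled to the set's total of all UMIs, where 3 UMIs are worth 0.590 CPM in the 73 CNT cells and 3.89 CPM in the 11 3CK cells.

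Enterocytes are the absorptive cells of the intestinal lining. Their apical brush border carries enzymes that finish the digestion of sugars and peptides and transporters that take up the products. Inside the cell, fatty acids are carried by the binding proteins FABP1 and FABP2 and retinol by RBP2, fat is re-esterified, and triglyceride is loaded onto apolipoprotein B by the transfer protein MTTP and secreted as chylomicrons coated with APOA1, APOA4 and APOC3. The same apolipoproteins are also made by liver and yolk sac. In the adult gut, FABP2, RBP2, lactase and chylomicron secretion belong mainly to the small intestine, whereas KRT20, SLC26A3, CEACAM5 and the posterior HOX genes mark the mature or the distal epithelium.

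FABP2 lies on chromosome 4 (119317250 to 119322138), RBP2 on chromosome 3 (139452884 to 139476516), FABP1 on chromosome 2 (88122982 to 88128062), PHGR1 on chromosome 15 (40351033 to 40356434) and REG4 on chromosome 1 (119794017 to 119811460) of GRCh38.p14. APOA4 (116820700 to 116823304), APOC3 (116829907 to 116833072) and APOA1 (116835751 to 116837622) sit side by side on chromosome 11. The 250 bases before the annotated start of the transcripts that chose the cells (FABP2, RBP2) and of others that the rule did not use (FABP1, REG4, APOA4) are shown 5′ to 3′ on the gene's strand, from RefSeq's GRCh38.p14 annotation; PHGR1 was not matched. Capitals mark short letter strings of 4 families of gut transcription factors, searched on both strands: CAAAGTCC for HNF4, GTTAAT for HNF1, TTTATG for CDX and AGATAA for GATA.
FABP2: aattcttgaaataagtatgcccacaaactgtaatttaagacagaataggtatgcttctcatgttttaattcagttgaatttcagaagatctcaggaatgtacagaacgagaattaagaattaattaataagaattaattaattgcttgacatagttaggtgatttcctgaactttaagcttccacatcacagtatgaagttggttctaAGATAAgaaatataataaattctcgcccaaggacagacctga
RBP2: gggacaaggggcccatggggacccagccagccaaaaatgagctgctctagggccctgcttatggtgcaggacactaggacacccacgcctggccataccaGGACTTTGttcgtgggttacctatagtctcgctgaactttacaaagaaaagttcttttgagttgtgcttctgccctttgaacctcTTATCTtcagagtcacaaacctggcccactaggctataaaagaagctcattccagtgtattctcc
FABP1: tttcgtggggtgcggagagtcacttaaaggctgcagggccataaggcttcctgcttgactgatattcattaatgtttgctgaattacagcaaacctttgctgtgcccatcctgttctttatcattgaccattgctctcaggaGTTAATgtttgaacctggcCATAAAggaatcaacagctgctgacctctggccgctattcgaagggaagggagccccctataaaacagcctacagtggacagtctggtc
REG4: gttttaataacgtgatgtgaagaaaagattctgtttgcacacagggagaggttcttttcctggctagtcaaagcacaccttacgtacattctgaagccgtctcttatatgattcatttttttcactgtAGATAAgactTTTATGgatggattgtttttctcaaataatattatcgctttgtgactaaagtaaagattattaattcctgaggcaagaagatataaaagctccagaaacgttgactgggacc
APOA4: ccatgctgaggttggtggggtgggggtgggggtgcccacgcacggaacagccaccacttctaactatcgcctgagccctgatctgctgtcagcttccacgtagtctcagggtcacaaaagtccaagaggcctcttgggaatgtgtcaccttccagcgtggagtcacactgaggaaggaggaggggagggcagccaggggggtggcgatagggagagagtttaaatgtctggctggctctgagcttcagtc
The GATA letters stand in FABP2, RBP2 and REG4, the HNF4 letters in RBP2, the CDX letters in FABP1 and REG4, the HNF1 letters in FABP1, and APOA4 has none of them in this window. Of 27305 promoters of that length, 1.02% hold the HNF4 letters, 6.22% the HNF1 letters, 10.0% the CDX letters and 9.37% the GATA letters. These are matches of letters, not measured sites.

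Within the CNT cells that met the rule, the 2 transcripts together ranged from 2.05 to 190 UMIs per 10000, with a median of 13.8. FABP2 had a lowest of 0, a median of 9.63 and a highest of 167 UMIs per 10000, and RBP2 had a lowest of 0, a median of 2.31 and a highest of 94.9. Both transcripts were found in 66 of the 73 cells, FABP2 alone in 6 and RBP2 alone in 1. FABP2 gave 12851 and RBP2 4176 UMIs, so FABP2 made up 75.5% of the pair; 3' UMI counts are per molecule and carry no length term. FABP2 was the more abundant in 62 cells and RBP2 in 11. In other CNT epithelial cells RBP2 was the more widespread of the pair: 226 cells had RBP2 UMIs only, 78 FABP2 only, 50 both and 460 neither. At the edge of the rule, 6 CNT cells lay between 2 and 2.5 UMIs per 10000 with a median of 98.4 UMIs per 10000 of FABP1 and PHGR1 together, and 13 lay between 1.5 and 2 with a median of 27.0. Cells that carry collagen transcripts and little EPCAM should lack these genes and were used as a reference level. Free RNA, mixed barcodes and low expression of their own were not told apart in them. With every cell thinned to 10000 UMIs, 1.48% of the 270 CNT collagen cells had a FABP2 UMI and 1.11% an RBP2 UMI. In the enterocyte-like cells it was 94.5% and 69.9% (unthinned 10.7% and 3.70% against 98.6% and 91.8%). The collagen cells had a median depth of 51139 UMIs.

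**Figure D1:**
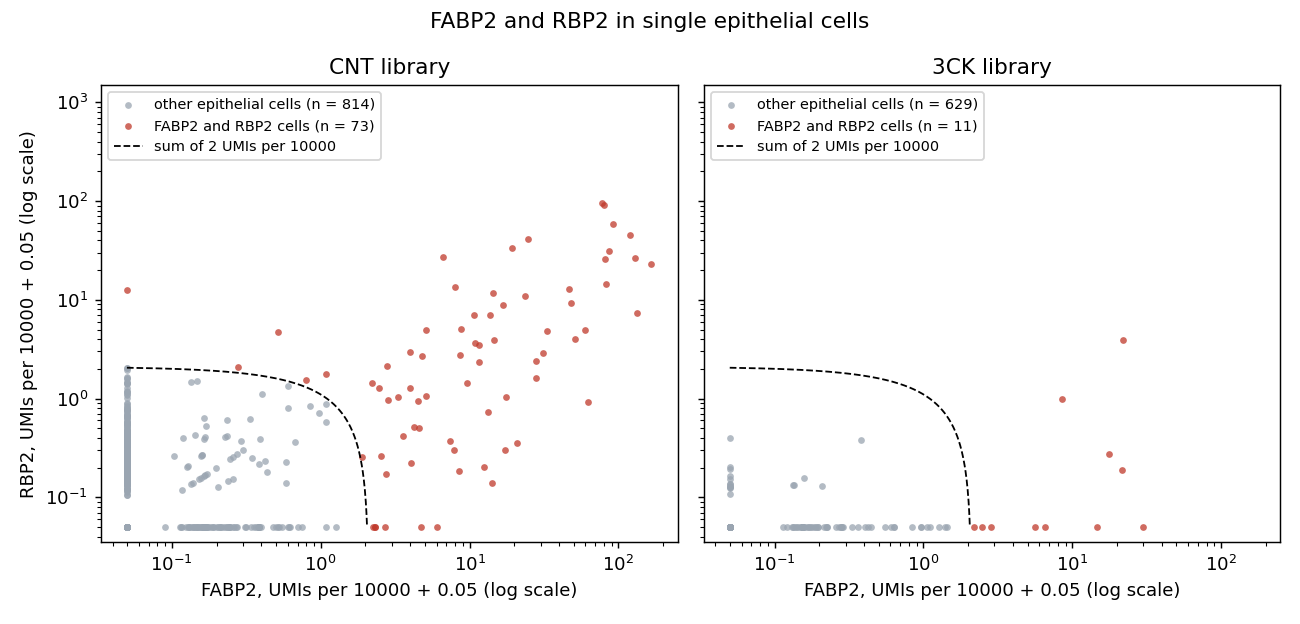
FABP2 (x axis) against RBP2 (y axis), UMIs per 10000 plus a small constant on log axes, in every epithelial cell of the CNT (left) and 3CK (right) library; red points met the rule, grey points did not, and the dashed line is the threshold of 2. The 73 CNT cells spread along both axes, while 7 of the 11 3CK cells lie on the floor of the RBP2 axis.

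FABP1, PHGR1 and REG4, 3 gut transcripts that the rule did not use, were each several-fold higher in the enterocyte-like cells. FABP1, the liver-type fatty acid-binding protein that the small intestine also makes, had a lowest of 0.743, a median of 38.6 and a highest of 174 UMIs per 10000 in the 73 CNT cells and a lowest of 0, a median of 2.00 and a highest of 179.7 in the other 814. The 2 sets overlapped, but the median of the first lay far above that of the second. In summed counts FABP1 was 5074 against 723 CPM, 7.02-fold (log2 2.81, interval 2.79 to 2.83). PHGR1, a small protein of mature gut epithelium, had a lowest of 0, a median of 64.0 and a highest of 362 UMIs per 10000 against a lowest of 0, a median of 0.195 and a highest of 254, and 8016 against 597 CPM, 13.4-fold (log2 3.75, interval 3.73 to 3.77). REG4, a secreted lectin of the gut, had a lowest of 0, a median of 3.69 and a highest of 56.9 against a lowest of 0, a median of 0 and a highest of 39.3, and 709 against 91.1 CPM, 7.78-fold (log2 2.96, interval 2.90 to 3.02). REG4 was thus at 0 in at least 1 cell that met the rule and its median there was the lowest of the 3. Thinned shares of cells with a UMI were 98.6% (92.6 to 100.0%) for FABP1, 93.2% (84.7 to 97.7%) for PHGR1 and 65.8% (53.7 to 76.5%) for REG4 in these cells, 66.7%, 33.5% and 15.8% in the other epithelial cells, and 12.6%, 11.5% and 2.59% in collagen cells.

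The 3 markers together reached the median of the enterocyte-like cells, 129.4 UMIs per 10000, in 12 of the 814 other CNT epithelial cells (1.47%, 0.764 to 2.56%). These cells lay below the threshold for FABP2 and RBP2 but did not all lack them. Across all genes that reached 10 CPM in either set, 485 of 9304 (5.21%) were at least 2-fold higher and 684 (7.35%) at least 2-fold lower in the enterocyte-like cells, and the median log2 ratio of all genes was -0.24. The split depended on the scaling: with TMM factors it was 665 higher and 363 lower around a median of -0.02, and with hepatic, mitochondrial and ribosomal genes left out of the total it was 490 higher and 1088 lower around a median of -0.35. The gene lists below were chosen with earlier results of these data known, so each count is a description to be read against these shares.

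**Figure D2:**
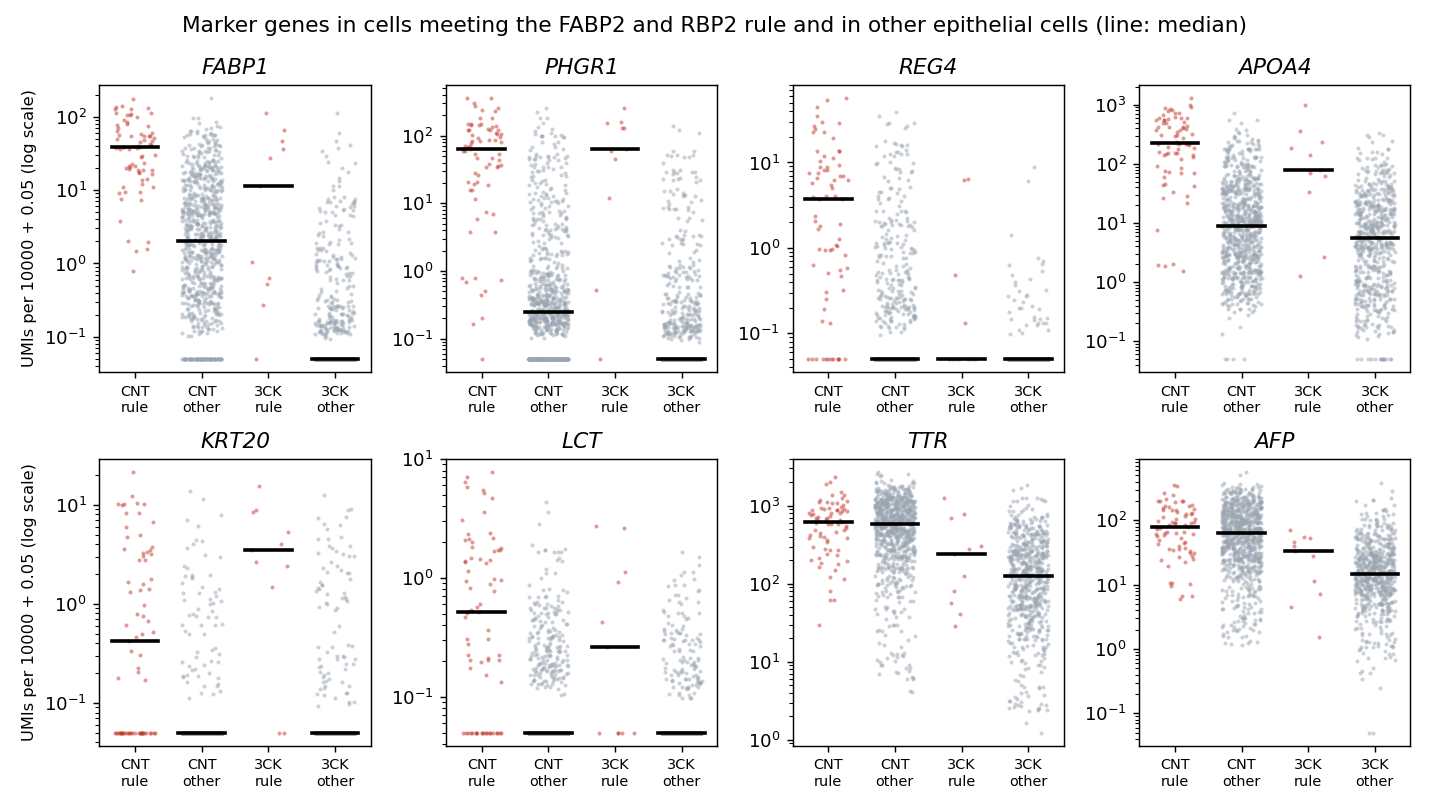
UMIs per 10000 (plus a small constant, log scale) of 8 genes in single cells that met the rule (red) and in other epithelial cells (grey) of each library; the black line is the median. FABP1, PHGR1, REG4 and APOA4 medians are higher in the red CNT cells, whereas TTR and AFP, made by liver and yolk sac, lie at similar levels in both CNT sets.

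The genes of fat uptake and chylomicron assembly were the most abundant group that was higher in the enterocyte-like cells, with a list median of 1.62, with 18 higher and 1 lower among the 23 of 27 genes that reached 10 CPM. Those 23 genes summed to 83177 CPM in the enterocyte-like cells and 17182 CPM in the other epithelial cells, most of it APOA1 and APOA4. Per cell, all 27 genes together spanned 18.6 to 2694 (median 769) against 2.19 to 1481 (median 140.1) UMIs per 10000. APOA4, a coat protein of chylomicrons, had a lowest of 1.49, a median of 224 and a highest of 1300.3 UMIs per 10000 against a lowest of 0, a median of 8.69 and a highest of 734, and 32959 against 2872 CPM, 11.5-fold (log2 3.52, interval 3.51 to 3.53). APOA1, APOC3 and APOB, which nearly all epithelial cells of the library carried, differed less: APOA1 was 33574 against 9789.5 CPM (log2 1.78, interval 1.77 to 1.79), APOC3 7219 against 2059.7 (1.81, interval 1.79 to 1.83) and APOB 1390.1 against 617 (1.17, interval 1.13 to 1.21). MTTP, which lipidates apolipoprotein B, had a lowest of 0, a median of 2.01 and a highest of 23.0 UMIs per 10000 against a lowest of 0, a median of 0.283 and a highest of 10.0, a log2 ratio of 2.63, interval 2.55 to 2.70. UMIs of the apolipoproteins were widespread in collagen cells too. Thinned to 10000 UMIs, 51.9% of these had an APOA4 UMI and 87.8% an APOA1 UMI, at 73.8 and 299.8 CPM. Their source was not tested.

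Enzymes that rebuild and store triglyceride were higher as well. DGAT2 and DGAT1, which make triglyceride, were 167 against 29.7 CPM (2.49) and 269 against 128 CPM (1.07), and ACSL5, which activates fatty acids, was 179 against 13.5 CPM (3.73). CIDEB and CIDEC, proteins of lipid droplets, were 7.67-fold and 9.60-fold higher. CREB3L3, a transcription factor of fat handling in liver and gut, had a lowest of 0, a median of 1.31 and a highest of 11.1 UMIs per 10000 against a lowest of 0, a median of 0.0813 and a highest of 6.04, a log2 ratio of 2.99, interval 2.88 to 3.10. The fatty acid receptor CD36 had the largest ratio of the list, 4.25, at 36.2 CPM in only 28 of 73 cells. SAR1B, SCARB1 and ACAT2 had ratios of 0.16, -0.01 and 0.03. ABCA1, which exports cholesterol, was the 1 gene of the list at least 2-fold lower (60.7 against 154 CPM, -1.35). The retinol-handling genes other than RBP2 did not share this pattern: 9 of 16 reached 10 CPM, with a median of 0.07 and only ALDH1A1 (1.24), a retinal dehydrogenase, and ISX (1.41), a repressor of carotenoid uptake, past 2-fold.

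Brush-border hydrolases were higher, with a list median of 1.60, with 7 higher and 0 lower among the 10 of 20 genes that reached 10 CPM; MEP1B and NAALADL1 had 0 UMIs. Lactase (LCT), which splits milk sugar, had a lowest of 0, a median of 0.470 and a highest of 7.76 UMIs per 10000 against a lowest of 0, a median of 0 and a highest of 4.34, and 127 against 8.81 CPM, 14.4-fold (log2 3.84, interval 3.68 to 4.01). Sucrase-isomaltase (SI) was lower in level, 22.2 against 2.47 CPM (3.17), and was found in 24 of 73 cells. Intestinal alkaline phosphatase was 68.4 against 17.7 CPM (1.95), the alkaline sphingomyelinase ENPP7 55.8 against 4.76 (3.55), and the aminopeptidase ANPEP 527 against 157 (1.75). DPP4, a peptidase of the same membrane, was carried by nearly all epithelial cells and differed by less than 2-fold (0.46). The proteins that build the microvilli themselves had a list median of 0.73, with 7 higher and 0 lower among the 17 of 17 genes that reached 10 CPM. The brush-border motor MYO1A was 8.16-fold higher, the protocadherins CDHR5 and CDHR2 4.71-fold and 4.30-fold, and villin (VIL1) 1.65-fold.

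Nutrient transporters had a list median of 1.27, with 15 higher and 0 lower among the 22 of 29 genes that reached 10 CPM. The neutral amino acid transporter SLC6A19 was 112 against 20.2 CPM (2.48), the peptide transporter SLC15A1 179 against 46.4 (1.95), and the folate transporter SLC46A1 122 against 45.8 (1.42). The sugar transporters were low: SLC2A5 for fructose was 41.7 CPM and SLC2A2 29.1 CPM. SLC5A1, the sodium-glucose transporter, had a ratio of 5.62, the largest of the list, but 81.9% of its UMIs came from 1 of the 7 cells that carried it. Bile salt uptake by SLC10A2, a trait of the ileum, was 11.4 CPM in 13 cells.

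**Figure D3:**
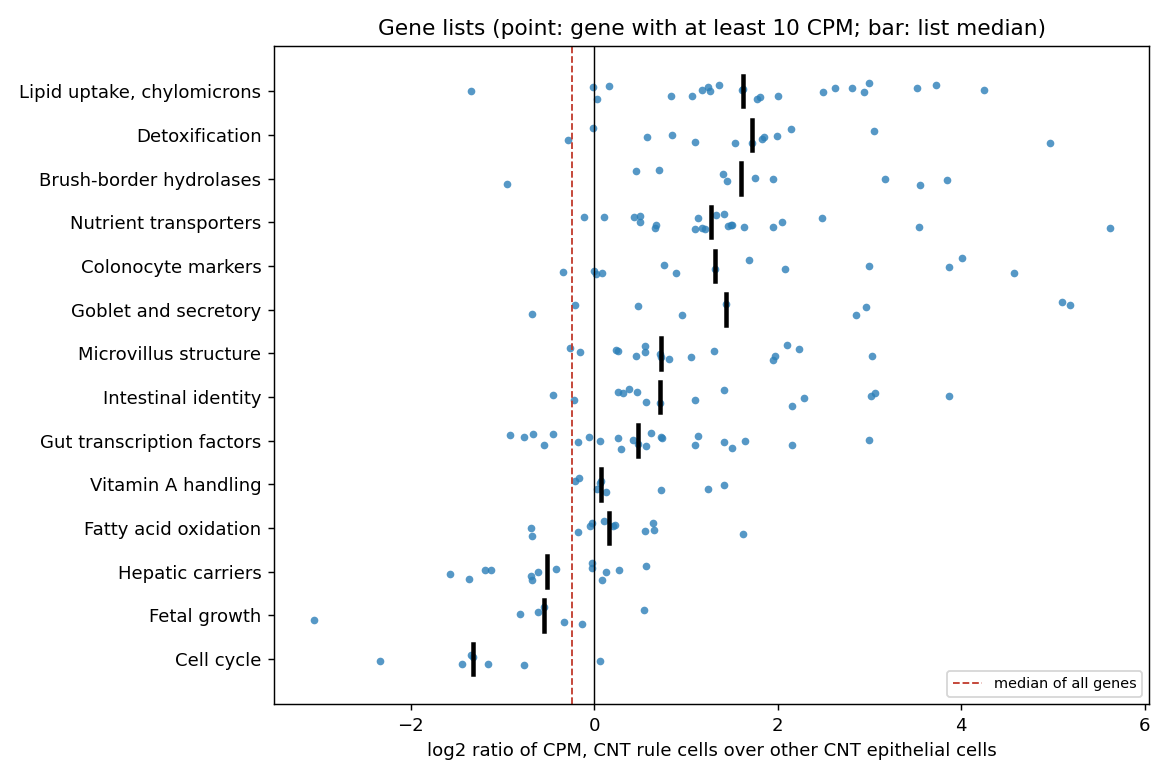
log2 ratio of CPM in the 73 enterocyte-like CNT cells over the other CNT epithelial cells (x axis) for each gene of 14 lists (rows); a point is a gene with at least 10 CPM in either set, the bar is the list median and the red dashed line the median of all genes, -0.24. The medians of the lipid, detoxification, hydrolase and transporter lists lie right of the dashed line. Those of the hepatic carrier, fetal growth and cell cycle lists lie left of it, and single genes fall on either side.

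Where the higher set reached 50 CPM, the 15 genes with the largest ratios included CCDC13, C3orf85, C11orf86, SLC26A3, BTNL3, LEAP2, KRT20, LCT, PHGR1, ACSL5, ENPP7, APOA4, AADAC and CIDEC, from 5.19 down to 3.26 on the log2 scale. C3orf85 had UMIs in 57 of 73 cells and was 222 against 7.02 CPM (log2 4.98, interval 4.82 to 5.14). BTNL3, a butyrophilin-like protein of the gut epithelium, was 74.1 against 3.47 CPM in 57 cells, and the peptide LEAP2 85.7 against 5.27 CPM in 43 cells. No single cell held more than 13.1% of the UMIs of any of these 3 genes. Of the 15, 9 were matched in the promoter table, and the HNF1 letters, in 6.22% of all promoters, stood in 4 of them (C3orf85, KRT20, LEAP2 and SLC26A3). The HNF4, CDX and GATA letters, in 1.02%, 10.0% and 9.37% of all promoters, stood in 1 of the 9 each.

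The 10 smallest ratios belonged to APELA, TAGLN, TUBA1A, NPPB, SLC2A3, TUBB3, ODC1, SYTL5, CST1 and PLK2. APELA, a peptide hormone of early embryonic cells, was 10.6 against 88.1 CPM (log2 -3.05, interval -3.47 to -2.67) and was found in 18 of 73 cells against 62.9% of the other cells. SLC2A3, the glucose transporter of fetal and neural cells, was 46.8 against 226 CPM (-2.27, interval -2.46 to -2.09), ODC1, which starts polyamine synthesis, 64.1 against 278 (-2.12, interval -2.28 to -1.96), and the stress kinase PLK2 36.6 against 152 (-2.06, interval -2.28 to -1.85). Among the cytoskeletal genes, TUBA1A (-2.83) and TUBB3 (-2.17), encode tubulins. A single cell gave 57.0% of the TAGLN UMIs of the enterocyte-like cells.

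Detoxification enzymes had a list median of 1.71, with 9 higher and 0 lower among the 13 of 23 genes that reached 10 CPM. GSTA1, a glutathione transferase, was 784 against 270.1 CPM (1.54); GSTA1 and GSTA2 are near-identical copies, so their split between the pair is uncertain, as it is within the UGT2B family. CYP3A5 was 67.8 against 15.4 CPM (2.14), CYP2C18 83.3 against 20.9 (2.00) and the carboxylesterase CES2 94.9 against 26.7 (1.83). CYP3A4, the main drug-metabolising cytochrome of the adult small intestine, was only 0.590 CPM, from 3 cells. It was at the level of 3 UMIs.

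Of the transcription factors of gut development and function, 23 of 28 reached 10 CPM, with a median of 0.48 and 7 higher and 0 lower. CREB3L3, CDX1, MAF, KLF4, HNF4G, PPARG and ISX were the 7. CDX1, which drives the intestinal program, was 53.1 against 11.9 CPM (2.16, interval 1.95 to 2.36), and MAF, a factor of enterocyte maturation, 110.2 against 35.4 (1.64). CDX2, the general factor of hindgut identity, had a lowest of 0, a median of 0.855 and a highest of 2.70 UMIs per 10000 against a lowest of 0, a median of 0.684 and a highest of 4.25, a log2 ratio of 0.26, interval 0.13 to 0.39; HNF4A was 0.56. The wider list of intestinal identity genes had a median of 0.72 and 7 higher and 0 lower, with GPA33 (8.33-fold), LGALS4 (8.12-fold) and TSPAN8 (4.89-fold), surface and lectin proteins of gut epithelium, among the higher.

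The labels call the tissue colon, and markers of the colon or of mature gut epithelium were present in part. KRT20, a keratin of mature gut epithelium, was 203 against 13.9 CPM (3.86) in 43 of 73 cells. SLC26A3, the chloride-bicarbonate exchanger of colonic surface cells, was 58.6 against 2.46 CPM (4.58) in 36 cells. The colonocyte list had a list median of 1.32, with 7 higher and 0 lower among the 13 of 20 genes that reached 10 CPM. On the same list, AQP8, CA1, HSD11B2 and BEST4 were at 0.197, 1.18, 0.393 and 1.97 CPM, and CEACAM7 and OTOP2 had 0 UMIs in the 73 cells. Of the posterior HOX genes, 0 of 19 reached 10 CPM, the highest being HOXB7 at 2.95 CPM. LCT and APOA4, genes of the small intestine, were higher in the same cells.

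Markers of other cell types the gate could hold were checked as whole lists. Hepatic and yolk-sac carrier genes were as abundant here as in the rest of the epithelium, 83.3 to 2687 (median 894) UMIs per 10000 per cell against 7.08 to 3131 (median 914), with 0 of 18 genes at 0 UMIs. The list median was -0.51 with 0 higher and 4 lower among 14 of 18 genes, and 0.01 when only other cells with TTR under their median were compared. TTR had a lowest of 29.7, a median of 622 and a highest of 2344 UMIs per 10000 against a lowest of 4.05, a median of 579 and a highest of 2725 (log2 0.09), AFP 9114 against 7536 CPM (0.27), and the fibrinogen chain FGA 495 against 1467 CPM (-1.57). Every collagen cell had a TTR UMI after thinning, at 1206 CPM, against 71849.9 CPM in the enterocyte-like cells. The part of hepatic RNA in the results was not tested.

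The enterocyte-like cells carried few transcripts of dividing or stem cells. MKI67 and TOP2A, made in dividing cells, had 0 UMIs in all 73 cells, which allows a share of cells with a UMI of up to 4.11% (3 of 73); they were 4.68 and 9.40 CPM in the other epithelial cells, at least 7.94-fold and 15.9-fold higher than the floor of 3 UMIs over the 73 cells. Genes of the cell cycle had a list median of -1.32 with 0 higher and 5 lower among 7 of 21 genes, and its sum per cell was 0 to 3.90 (median 0.777) UMIs per 10000 against 0 to 56.9 (median 1.32). The stem cell gene LGR5 was at 0 UMIs in the 73 cells and at 0.360 CPM in the others, so its difference was not detectable at this depth. PROM1 and CD44 were the only stem or WNT genes past 10 CPM, at ratios of -1.37 and -1.40.

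Secretory markers were mixed. The goblet list had a list median of 1.44, with 5 higher and 0 lower among the 9 of 15 genes that reached 10 CPM, but the goblet mucin MUC2 had UMIs in 3 cells only (2.95 CPM), MUC5B had 0, and SPDEF was 1.18 CPM. The members that were higher included MUC13 (809 against 112 CPM, 2.85), a membrane mucin that absorptive cells also make, and the trefoil peptides TFF1 (1.44) and TFF3 (2.97). FCGBP had a ratio of 5.19 from 5 cells, 1 of which gave 55.3% of its UMIs. The gastric trefoil peptide TFF2 was 825 against 116 CPM (2.82), while MUC5AC and SOX2 were at 0. Of the enteroendocrine list, 6 of 24 genes reached 10 CPM, with a median of -0.32, 0 higher and 1 lower, and a sum of 782 against 783 CPM. The peptide hormone neurotensin (NTS) was 358 against 206 CPM and CHGA 6.88 against 13.4, and motilin (MLN), the lower gene, was 1.38 against 48.2. Of the Paneth, tuft and M cell list, 4 of 13 genes reached 10 CPM, with lysozyme (LYZ, 2.14), PLA2G2A (1.06) and CCL20 (1.39) higher and ITLN2 (-1.06) lower. The mesenchymal list had a median of 0.68 with 4 higher and 3 lower among 8 of 14 genes. COL6A1 (1.77), COL6A2 (1.61), LUM (1.25) and DCN (1.20), all of the extracellular matrix, were higher, and VIM (-1.20), TAGLN (-2.90) and ACTA2 (-2.02), of the cytoskeleton, lower. Of the immune, endothelial and neural list, 3 of 14 genes reached 10 CPM, with CD68 (1.64), a lysosomal protein abundant in macrophages, and PECAM1 (1.35), an adhesion protein of endothelium, higher and TUBB3 (-2.17) lower; PTPRC, VWF and SOX10 had 0 UMIs. Genes of cell dissociation stress had a median of 0.34 and 0 of 12 past 2-fold.

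As a description along the values that chose the cells, CNT epithelial cells were placed in 6 ranges of FABP2 and RBP2 together: 0 (460 cells), above 0 and under 2 (354), 2 to 5 (20), 5 to 10 (11), 10 to 20 (14) and 20 or more UMIs per 10000 (28). Along these ranges APOA4 was 1916, 3963, 12025, 31226, 22482 and 52672 CPM. MTTP was 45.1, 95.6, 151, 151, 225 and 811 CPM and CREB3L3 was 18.9, 39.8, 85.2, 199, 165 and 362 CPM. All 3 were highest in the top range, but APOA4 and CREB3L3 were lower from 10 to 20 than from 5 to 10. APOB was uneven, at 474, 781, 734, 1770.2, 940.4 and 1927 CPM. PHGR1 was 290.5, 947, 9176, 7148, 6363 and 8657 CPM, and FABP1 was 390.4, 1102, 3591, 4518, 5994 and 5596 CPM. Neither was highest in the top range: PHGR1 was highest from 2 to 5 and FABP1 from 10 to 20 UMIs per 10000 of the pair. REG4 was 55.0, 132, 784, 903, 817 and 528 CPM, and TTR was 59549.5, 76925, 57493, 87800.4, 73052 and 73996 CPM.

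**Figure D4:**
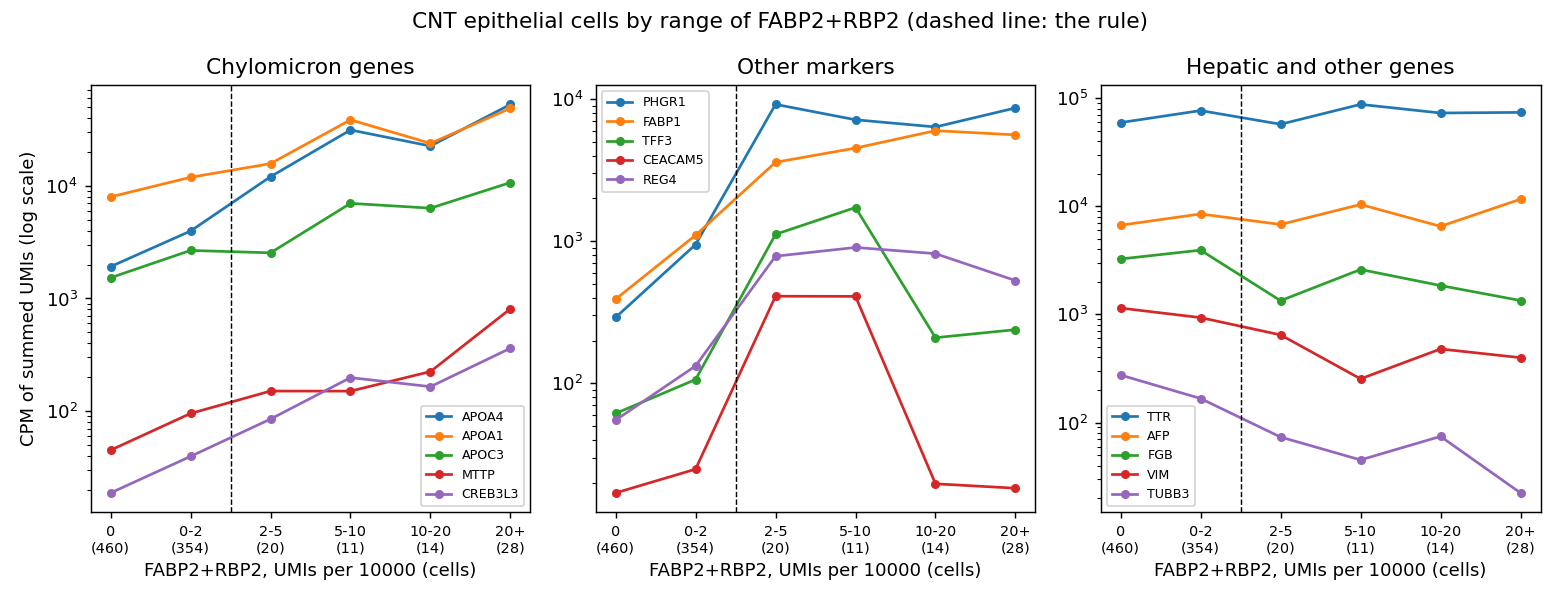
CPM of summed UMIs (y axis, log scale) of 15 genes in CNT epithelial cells grouped by FABP2 and RBP2 UMIs per 10000 (x axis, number of cells in parentheses); the dashed line marks the rule. The lines of APOA4, MTTP and CREB3L3 end at their highest points, those of PHGR1 and FABP1 have their highest points before the top range, and that of TTR is nearly level.

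Over the 73 single cells, which share 1 library and its depth, Spearman's rho with FABP2 and RBP2 together, the values that chose them, was 0.68 for MTTP, 0.67 for APOA4, 0.64 for C3orf85, 0.63 for CREB3L3, 0.61 for APOC3, 0.54 for SLC26A3 and 0.51 for MAF. It was 0.34 for FABP1, 0.16 for PHGR1, -0.06 for REG4, -0.01 for CDX2 and 0.06 for TTR, and -0.27 for CEACAM5. Total UMIs gave 0.15 and the mitochondrial share -0.31. These are descriptions of 1 library, with no test.

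The 6 CNT cells with FABP2 but no RBP2 differed from the 66 with both. They were shallower, with a median of 40084 against 71385 UMIs, and close to the threshold, with a median of 2.46 against 14.7 UMIs of the pair per 10000. APOA4 was 7989.7 CPM in them against 34239, and PHGR1 15334 against 7696. In the 20 CNT cells at 2 to 5 UMIs per 10000 of the pair, APOA4 was 12025 and PHGR1 9176 CPM. That range contains most of the 6 cells, so it is no separate reference for them. The part of the threshold in these differences was not tested. TFF3, the trefoil peptide of goblet cells, was 5705 against 390.3 CPM, and 42.6% of the TFF3 UMIs of all 73 cells lay in these 6. Most of them came from 1 cell with 1065 TFF3 UMIs, which also held 238 CEACAM5 and 94 FCGBP UMIs. Another had 297 TFF3 UMIs of 10741 in all, and the other 4 had 14, 13, 7 and 0. MUC2 was at 0 in all 6. The single cell with RBP2 alone differed in another way, with AFP at 34282 CPM, ALB at 12592 CPM, APOB at 4218 CPM and PHGR1 at 63.0 CPM. The summed TFF3 and CEACAM5 values of the 73 cells rest largely on a few of them.

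In the cytokine-treated library 11 of 640 epithelial cells met the rule, 1.72% (0.861 to 3.05%), against 73 of 887, 8.23% (6.51 to 10.2%), in CNT. Whether fewer such cells were present or the cells carried fewer FABP2 and RBP2 transcripts cannot be told apart by a threshold on those transcripts. The pair ranged from 2.13 to 29.6 UMIs per 10000 in the 11 cells (median 9.36). FABP2 was found in all 11, and RBP2 in 4. FABP2 gave 1062 and RBP2 45 UMIs, 39 of the latter in 1 cell, so FABP2 made up 95.9% of the pair. RBP2 was also lower in the other epithelial cells of the 3CK library (0.335 against 11.4 CPM), where FABP2 was 2.73 against 3.44 CPM.

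Within their own library the 3CK cells stood out by the same markers. FABP1 was 2614 against 118 CPM in other 3CK epithelial cells (log2 4.47, interval 4.40 to 4.54), PHGR1 7882 against 231 (5.09, interval 5.05 to 5.14) and APOA4 16865 against 1703 (3.31, interval 3.28 to 3.33). Of 9186 genes, 6.81% were at least 2-fold higher and 17.6% at least 2-fold lower in this comparison, whose smaller set is only 11 cells; the lipid list had a median of 1.51 with 12 higher and 1 lower among 21 of 27. The 11 cells were uneven. FABP1 was absent from 1 cell, had 1 UMI in each of 2 and reached 565 UMIs in another. PHGR1 was at 0 in 1 cell and between 1 and 1177 UMIs in the rest. REG4 was found in 4 cells, with 2, 29, 1 and 29 UMIs.

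Compared with the 73 CNT cells, 969 of 8997 genes (10.8%) were at least 2-fold higher and 1351 (15.0%) at least 2-fold lower in the 11 3CK cells, around a median of -0.05; with hepatic, mitochondrial and ribosomal genes left out of the total, the counts were 873 and 1895 around -0.22. The interferon-γ response genes were the group that stood highest: all 20 of the list were at least 2-fold higher, with a median log2 ratio of 5.73. Their sum per cell was 139 to 377 (median 233) UMIs per 10000 in 3CK and 2.23 to 84.9 (median 21.2) in CNT cells. That sum was mostly the single gene B2M, since the whole list held 24630.1 CPM in the 3CK and 2359 CPM in the CNT cells. B2M, the light chain of MHC class I, was 19136 against 2205 CPM (log2 3.12, interval 3.08 to 3.15), with a lowest of 101, a median of 183 and a highest of 300.1 UMIs per 10000 against a lowest of 0.743, a median of 19.8 and a highest of 81.1. PSMB9, a subunit of the immunoproteasome, was 736 against 1.97 CPM (8.55, interval 7.66 to 9.62) and was found in all 11 cells. PIGR, which carries antibodies across the epithelium, was 341 against 1.18 CPM (8.18, interval 7.04 to 9.64). IDO1, which degrades tryptophan, had 150 UMIs over 10 of 11 cells and 0 in the 73 CNT cells, and GBP5, an interferon-induced GTPase, 179 UMIs and 0: at least 330.2-fold and 394-fold higher, counting 0 as the floor of 3 UMIs.

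The same genes were also higher in the other epithelial cells of the 3CK library, where the log2 ratio of 3CK over CNT was 3.14 for B2M, 8.77 for PSMB9 and 9.21 for PIGR. Against those neighbours, the interferon-γ list had a median of -0.14 with 2 higher and 4 lower among 20 of 20 genes in the 11 cells, and a sum of 24630.1 against 18179 CPM, most of it B2M (19136 against 9898). PIGR was among the higher genes (1.68). The chemokine CXCL10 was lower in the 11 cells than in their neighbours, 218 against 1900.3 CPM, and 76.2% of its UMIs came from 1 cell; IDO1 was 195 against 570.5 CPM. NF-κB targets had a median of 3.03 over CNT with 15 higher and 0 lower among 17 of 18, among them the chemokine CCL20 (1607 against 75.9 CPM, 4.40), the oxidase DUOX2 (958 against 135 CPM, 2.82) and the adhesion protein ICAM1 (945 against 20.4 CPM, 5.53). LCN2, an iron-trapping defence protein, was 2261 against 18.7 CPM, 63.8% of it from 1 cell. Of the other 10 largest ratios, IFIT2 (8.87) drew 67.6% of its UMIs from 1 cell, AC012322.1 and SERPINB3 all of theirs, and CASP1 (7.82) and GBP4 (7.81) were found in 10 and 9 cells.

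Absorptive and detoxifying genes were lower in the 3CK than in the CNT cells. The detoxification list had a median of -1.59 with 0 higher and 11 lower among 13 of 23, the lipid list -0.96 with 0 higher and 10 lower among 23 of 27, and the transporter list -0.71 with 4 higher and 11 lower among 25 of 29. APOA1 was 8432 against 33574 CPM (-1.99), APOA4 16865 against 32959 (-0.97) and DGAT2 11.7 against 167 (-3.84). GSTA2 had 2 UMIs in the 11 cells against 3564 in the 73 (log2 -8.08, interval -11.12 to -6.22), and CUBN, the cubilin receptor of vitamin B12 uptake, 1 against 864 (-7.03, interval -12.34 to -4.55). The 10 smallest ratios also included those of DUSP9, UGT2B10, FAM151A, UGT2B4, UGT2B15, AKR1D1 and KRT7, each with 1 to 3 UMIs in 3CK. In the other epithelial cells the log2 ratio of 3CK over CNT was -4.69 for GSTA2, -3.82 for CUBN and -0.75 for APOA4.

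Some gut genes were near or above the CNT level in the 3CK cells. PHGR1 was 7882 against 8016 CPM and CREB3L3 302 against 228 (0.41, interval 0.20 to 0.61). KRT20 was 388 against 203 CPM (0.93, interval 0.74 to 1.12). The adhesion proteins of the colonic surface CEACAM1 (581 against 102 CPM) and CEACAM5 (1986 against 164 CPM, 3.60) and the mucin MUC13 (1.39) were higher, and CEACAM5 was found in 9 of 11 cells against 24 of 73. CEACAM7, at 0 UMIs in the 73 CNT cells, was 38.9 CPM in 3 3CK cells, which held 6, 1 and 23 UMIs. CEACAM5 was uneven as well, with 544 and 415 UMIs in its top 3CK cells and 0 to 180 in the rest. SLC26A3 was lower (6.49 against 58.6 CPM, -3.17). The colonocyte list as a whole had 5 genes higher and 5 lower. The microvillus list had a median of -0.14 with 0 higher and 4 lower among 17 of 17 genes, MYO1A (-1.52) and VIL1 (-1.74) among the lower.

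**Figure D5:**
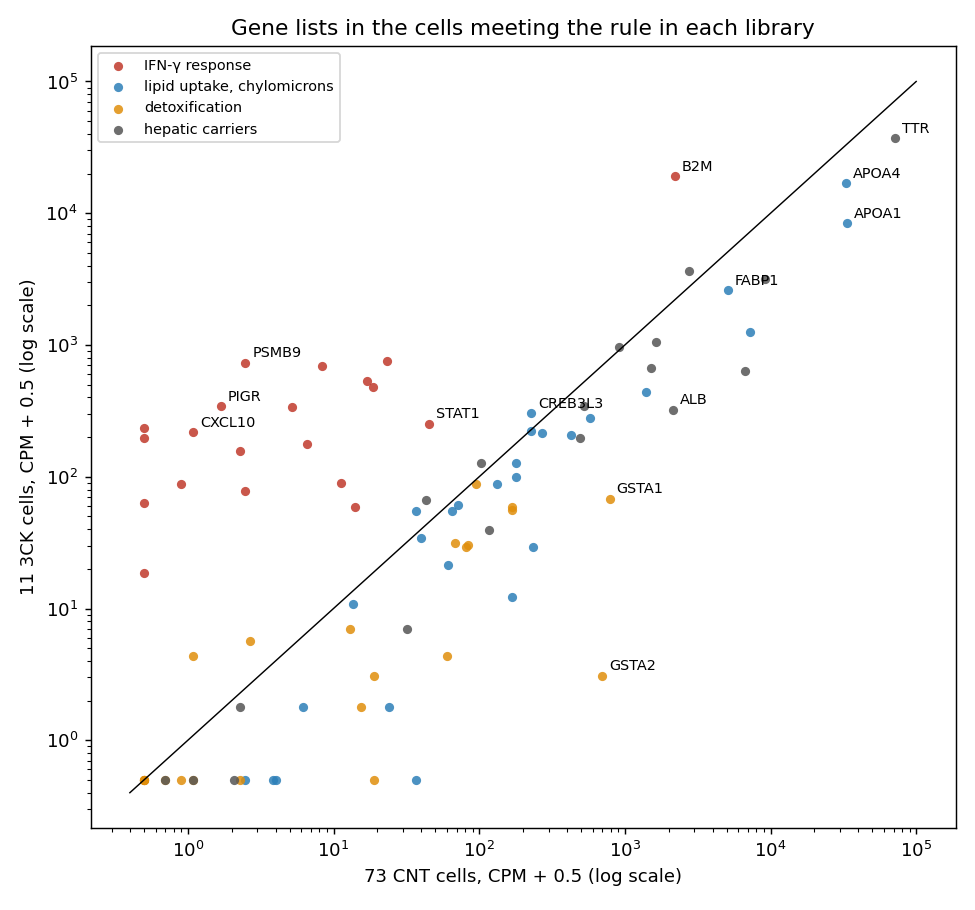
CPM plus a small constant (log axes) of each gene of 4 lists in the 73 CNT (x axis) and the 11 3CK (y axis) enterocyte-like cells; the line marks equal levels. All 20 interferon-γ response genes lie above the line, the 13 detoxification genes with at least 10 CPM lie below it, and APOA4, TTR and FABP1 lie slightly below.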

How the data were processed

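Dissociated organoid cells were captured with 10x Genomics 3' v3.1 chemistry, per the labels' protocols. The authors deposited raw UMI counts for each gene in each barcode; Cell Ranger 7.1.0 wrote them, per the file headers. The build GRCh38 is named in the submitters' processing notes, and the annotation is not given in the sources used here. A table of current names held 36366 of the 36601 gene IDs, and 10 symbols repeat. Cells were selected by the rule in the report, with no clustering. UMIs were summed per set and scaled to CPM; each ratio's interval was derived from an exact binomial interval for 1 set's share of the 2 sums, a set at 0 UMIs was taken at 3 UMIs, and a list's median and counts use genes with at least 10 CPM in either set. Shares of cells used thinning to 10000 UMIs without replacement (no cell was too shallow) and exact Clopper-Pearson intervals. Doublets were scored with Scrublet in scanpy 1.11.5. The number removed was set by an assumed rate of 0.8% per 1000 barcodes, not by the scores. It came to 52 of 2539 CNT and 16 of 1414 3CK barcodes, 0 of them enterocyte-like. These barcodes were left out only as an alternative, and the barcodes kept are not shown to be single cells. PCR and capture error are not in the intervals. Whether counting used strand is not given, so overlapping antisense genes may share reads.

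The cells and the 26 gene lists were chosen with earlier results of these data known. Genes were named by rule: the 15 largest and 10 smallest CNT ratios and the 10 largest and smallest 3CK over CNT ratios at 50 CPM or more, and in each list the most abundant gene and the largest and smallest ratio; further list genes were picked for the text after their values were seen, and some genes are not reported here. Alternatives were other thresholds (1 and 5 UMIs per 10000), 20000 UMIs, a mitochondrial limit of 10%, doublets removed, equal weight per cell, TMM factors (edgeR 4.0.16), another total, minima of 1 and 50 CPM, and 2 narrower comparison sets; leaving out the top cell of a gene was added after seeing the data. The ratio code was tested on simulated data. Python 3.11.15 and R 4.3.3 were used.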

Additional observations from a re-analysis of the deposited data

Results flagged for a closer look

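The rule left out some barcodes that carried FABP2 and RBP2 at 2 or more UMIs per 10000 and at least 2 UMIs of them. In CNT 112 barcodes carried them so, of which 73 met the rule; of those left out, 28 had fewer than 10000 UMIs in all, 5 deeper ones failed on their collagen UMIs alone, 3 on MALAT1 alone, and the rest on more than 1 criterion. In 3CK it was 17 barcodes, of which 11 met the rule; of those left out, 3 had fewer than 10000 UMIs, 2 failed on MALAT1 alone and the last on more than 1 criterion. Each one left out stands outside the comparisons of the report, and none of them is counted among the 73 and 11 cells.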

How the results depend on the processing

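No paired analysis was possible because each group is 1 library. The share of CNT epithelial cells that met the rule was 11.3% with a threshold of 1 UMI per 10000 and 5.98% with 5; the other share settings moved it less than its interval. Genes at least 2-fold lower in the CNT cells numbered 1035 with the threshold of 5, 363 with TMM factors, 1088 with hepatic, mitochondrial and ribosomal genes left out of the total, and 1336 against other cells with TTR under their median. With a minimum of 1 CPM, 1047 genes were higher and 2348 lower in CNT, and 2292 higher and 2368 lower in 3CK over CNT. With 50 CPM these were 185, 150, 437 and 301, since the filter sets how many genes are counted. The 2292 include an artefact of the floor. A gene with 0 UMIs in the 11 3CK cells was taken at 3.89 CPM there. With a minimum of 1 CPM it could thus be counted as higher in 3CK without having been found in them. Of 300 alternative values of list medians in CNT, 282 kept their sign, as did 246 of 256 for 3CK over CNT; for named genes it was 1128 of 1170 and 937 of 957. Of values that were at least 2-fold either way, the direction turned for CXCL8 in CNT (3.38 with the threshold of 1), PCLAF (-0.083 with the threshold of 5, -0.19 without its top cell) in 3CK over CNT, AC012322.1 in CNT (0.33 without its top cell) and the immune, endothelial and neural list in CNT (-0.27 at 50 CPM); the causes were not tested, and smaller values that changed sign are in the counts before. MLN in 3CK over CNT was -0.10 with the threshold of 1, but at 0 UMIs in the 11 cells it stood at the floor and had no direction. Depth limits the 11 3CK cells most: 3 UMIs are 3.89 CPM there, and a gene at or below that level in CNT cannot be shown to be lower.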
